A study of Mus musculus with 2 samples.

Results

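Hypoxic tumour cells are described here as the 10% of keratin-positive cells of a mouse tumour pool with the most transcripts of 7 oxygen-responsive genes. A barcode was taken as a tumour cell when it held at least 500 genes, under 15% mitochondrial UMIs (unique molecular identifiers, each standing for 1 captured transcript), at least 3 UMIs of the keratin genes Krt8 and Krt18 together and no UMI of the leukocyte gene Ptprc. Of 9747 barcodes, 8784 passed the gene and mitochondrial limits and 5810 were tumour cells by this rule. The 581 of them with the highest summed level of Car9, Ankrd37, Slc2a1, Ndrg1, Bnip3, Egln3 and Ero1l are called hypoxic, and the remaining 5229 are the other tumour cells. Levels are given as CPM, the UMIs of a gene scaled to all gene UMIs of the same cells. Members were chosen by the measured level of the 7 genes, so their own excess in these cells is a description and supports nothing. Oxygen itself was not measured, and "hypoxic" refers to the transcripts alone.

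The series title names ACSS2 inhibitors in triple negative breast cancer, and its design text names Bmal1 status, which the labels of these samples do not mention. The cells came from tumor tissue of animals whose strain is labelled "NGS mouse", in 3 vehicle and 3 ACSS2i treated samples, where ACSS2i stands for an inhibitor of the acetate-activating enzyme ACSS2. The labels give no dose, time or age, no promoter or cell line for the tumours, and no statement that the samples came from separate animals. Between 4000 and 6000 live cells of each sample were combined on 1 lane of a droplet platform and read as 1 expression and 1 protein library. The protein library carried 6 antibody tags, 1 for each sample (D0, D1, D4, U2, U3 and U4), and both libraries refer to the same barcodes. No source used here links a tag to vehicle or inhibitor, so the tags were handled as 6 samples of unknown treatment and no arm was compared with another. Hypoxic cells were chosen on the same counts that are compared, so no test between hypoxic and other cells is given, and the values within each tag are shown instead. A gene was called higher or lower when its CPM differed by at least 1.5-fold between hypoxic and other tumour cells. Intervals are exact 95% intervals that cover counting error only.

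Cells short of oxygen stabilise the transcription factor HIF-1, a pair of HIF1A and ARNT, because the prolyl hydroxylases EGLN1 and EGLN3 need oxygen to mark HIF1A for the ubiquitin ligase that contains VHL. HIF-1 binds a short DNA core, ACGTG or GCGTG, and raises genes for glucose uptake, glycolysis, pH control and vessel growth. Solid tumours hold such cells where vessels are sparse, and division is known to slow there.

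The summed level of the 7 genes formed a continuous range with no gap at the limit. The lowest member and the highest of the other tumour cells both stood at 3180 CPM. Within 10% of that limit lay 108 members above it and 134 other cells below it. The median was 4330 CPM in members, with a highest value of 16270.7, and 848.2 CPM in the other cells, of which 55 held no UMI of any of the 7 genes. The median member held 103 UMIs of the 7 genes and the median other cell 22. The class is therefore a range cut from a score, not a separate cell type.

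Members were somewhat shallower than the rest. Their median was 22200 UMIs and 4092 genes per cell, against 26408 UMIs and 4640 genes in the other tumour cells, and the median mitochondrial share was 3.51% against 3.75%. In each of the 6 tags the median UMIs of members were below those of the other cells, at 0.798 times (U4) to 0.872 times (D0). Members with under 5000 UMIs numbered 4. The part of depth in the results below was not tested beyond choosing members within 10 equal classes of depth, given with the processing alternatives.

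All 6 tags held hypoxic cells. They were 9.06% of the tumour cells of U2 (152 of 1677, 7.73 to 10.5), 12.6% of U3 (19 of 151, 7.75 to 18.9), 6.79% of U4 (15 of 221, 3.85 to 10.9), 15% of D0 (25 of 167, 9.93 to 21.3), 8.98% of D1 (92 of 1024, 7.30 to 10.9) and 10% of D4 (16 of 160, 5.83 to 15.7). The highest share was in D0 and the lowest in U4, and neighbours in the order overlapped in their Clopper-Pearson intervals. Cells without a tag were 12.0% hypoxic (222 of 1854) and cells with several tags, which can be 2 cells in a droplet, 7.19% (40 of 556). Members with 1 tag number 319, so per-tag values rest on 15 to 152 members each.

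**Figure D1:**
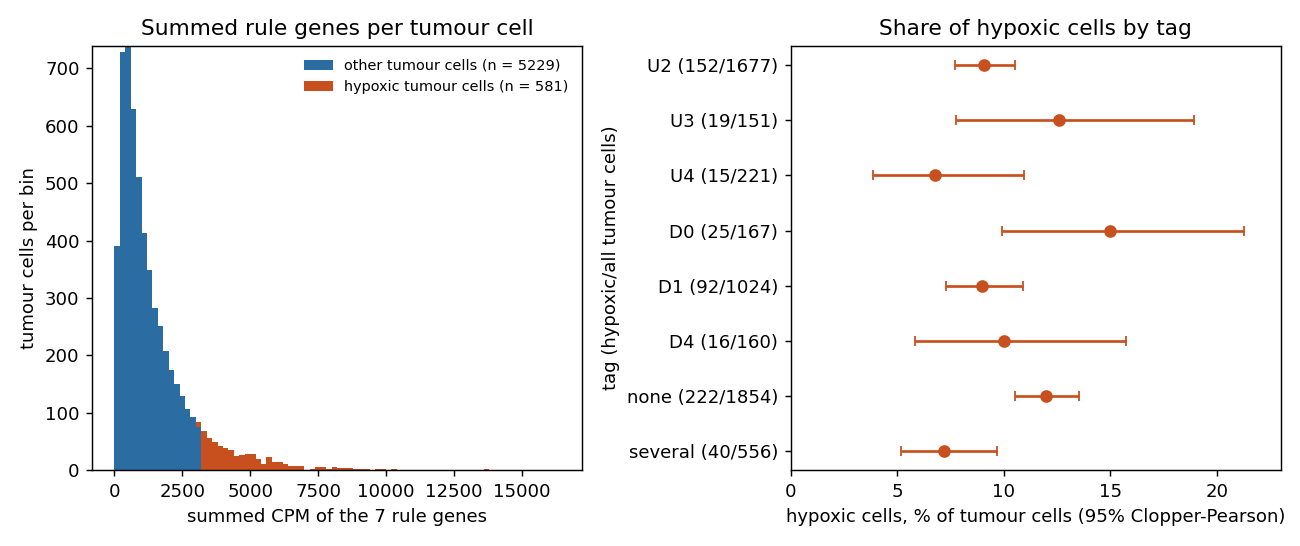
Left, number of tumour cells in bins of 200 CPM of the summed 7 rule genes, stacked, with the 581 hypoxic cells in orange and the 5229 other cells in blue. Right, hypoxic cells as a percent of tumour cells for each tag assignment, with exact 95% Clopper-Pearson intervals, running from 6.79% in U4 to 15% in D0.

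Keratin transcripts were close in both groups. Krt8 was 691.5 CPM in members and 828.3 in the other cells, and Krt18 was 241.9 and 217.8. Every cell had to hold at least 3 UMIs of these genes together, and the median was 13 in members and 19 in the other cells. Requiring at least 10 gave 414 hypoxic cells, of which 353 were among the members given here (60.8% of them). In that setting 498 genes were called higher and 1427 lower. Most other epithelial genes were close to 0 in both groups. Epcam, the epithelial adhesion gene, had no UMI in members and 0.0337 CPM in the other cells, and Cdh1 (E-cadherin) had 0.144 and 0.0876 CPM, while the intermediate filament gene Vim stood at 8069 and 6839. Of 18 keratin and epithelial adhesion genes, 6 reached the minimum of 2 CPM over all tumour cells and none of those was called, so the cells are named by the keratin rule and not as epithelial.

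Markers of other cell types were at low levels, except the fibroblast marker Dcn. The 12 leukocyte markers summed to 14.9 CPM in members and 17.7 in the other cells, with Ptprc at 0 by the rule, and over the 6 tags their ratio ran from 0.456 (D1) to 2.88 (D0). The 12 macrophage markers summed to 34.5 and 48.4 CPM, with Adgre1 at 0 in members. Among the 7 of them above the minimum, 5 were called lower, as Lyz2 (4.39 against 8.17 CPM), and 1 higher, Cd68 (11.5 against 6.27). The shares were 71.4% lower and 14.3% higher, against 13.8% and 4.43% of all genes. The 6 neutrophil markers summed to 10.9 and 10.3 CPM and the 7 endothelial markers to 80.5 and 74.8, most of it Flt1 (72.0 and 67.6). The 8 fibroblast markers summed to 3381 and 2645 CPM, nearly all of it Dcn (3303 and 2563), with Fap at 0 in members and Thy1 at 0.360. Haemoglobin genes were called higher, Hbb-bs at 75.8 against 18.5 CPM, but 97.9% of the Hbb-bs UMIs of members lay in 10 cells, and the list was lower in 5 of 6 tags. The Hbb-bs ratio of 4.09 turned to 0.0975 without the barcodes that carried several tags. Without the 12 barcodes over 2 haemoglobin UMIs, an alternative added after seeing the data, 453 genes were called higher and 1411 lower.

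The 7 rule genes differed in what they gave to the choice. Ero1l, which encodes the oxidase that supplies disulphide bonds in the endoplasmic reticulum, made up 47.1% of the rule-gene UMIs of members and 34.8% of those of the other cells. In U2, U3, U4, D0, D1 and D4 its level was 2353, 2623, 2391, 2202, 2050 and 2487 CPM in members and 406.2, 290.9, 286.5, 379.2, 331.1 and 331.7 CPM in the other cells. The ratio over all cells was 6.10. Car9, the carbonic anhydrase of the outer cell surface, was 258.6 CPM in members and 93.3 in the rest. Slc2a1, the glucose transporter GLUT1, was 382.8 and 93.1 CPM. Ankrd37, an ankyrin repeat gene, was 200.6 and 41.6, Ndrg1 912.2 and 230.2, the mitophagy receptor gene Bnip3 646.6 and 177, and the prolyl hydroxylase gene Egln3 103.1 and 46.8. All 7 genes had a UMI in 65.4% of members (380 cells) and in 23.1% of the other cells (1209).

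Each rule gene was also read in the top 10% of tumour cells by the other 6 genes, leaving its own counts out. Ero1l was then 1877 CPM in the chosen cells and 400.1 in the rest, a ratio of 4.69 (4.62 to 4.76). The ratios of the others were 4.46 for Ankrd37, 3.86 for Slc2a1, 3.44 for Ndrg1, 3.34 for Bnip3, 2.57 for Car9 and 2.04 for Egln3. Within the 3 tags with at least 20 members (U2, D0 and D1), the lowest of these ratios was 1.99, for Egln3. Leaving Ero1l out kept 78.3% of the members, and leaving out any other gene kept 90.7% (Ndrg1) to 96.9% (Egln3). The chosen cells were thus mostly the same members, and members were chosen with earlier results of these data known. These ratios are therefore a description and no independent check of the rule.

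Across the 10154 genes with at least 2 CPM over all tumour cells, 450 were called higher in hypoxic cells (4.43% of those tested, 443 without the rule genes) and 1403 were called lower (13.8%). Of the called genes, 378 (85.3% of the 443 outside the rule, higher) and 1212 (86.4%, lower) lay on the same side in all 3 tags with at least 20 members. The cells of these tags are part of the sums that made the calls, so this agreement is in part built in. The median gene stood at -0.12 on the log2 scale, so a typical gene was slightly lower in members. Relative to that median, 718 genes were called higher and 935 lower, and the share of calls that were higher went from 24.3% to 43.4%. The median of the hypoxia, glycolysis, replication, mitosis and oxidative phosphorylation lists kept its sign under that scaling.

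The oxygen sensor itself was part of the difference. Of 12 genes of oxygen sensing and the HIF pathway, 9 reached the minimum, 3 were called higher (33.3%, against 4.43% of all genes) and none lower. The median log2 ratio was 0.37. Egln1, the main prolyl hydroxylase, was 374, 494.3, 399.6, 346.1, 398.1 and 426.2 CPM in members of U2, U3, U4, D0, D1 and D4 and 119, 111.8, 104.5, 127.1, 131.2 and 115.6 in the other cells of the same tags. The groups did not overlap, and the ratio over all cells was 3.07 (2.98 to 3.16). Vhl, the ubiquitin ligase subunit that removes HIF1A, was 33.9 against 14.9 CPM (2.27-fold), and Arnt, the partner of HIF1A, 37.2 against 23.7 (1.57-fold). Both were higher in 6 of 6 tags. Hif1a was 314.4 and 228.9 CPM, a ratio of 1.37, short of the fold for a call and above 1 in 6 of 6 tags. Epas1, which encodes HIF2A, was 0.865 and 1.02 CPM, and Hif3a had no UMI in either group, so HIF1A was the only alpha subunit above the minimum.

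Other known targets of hypoxia were higher as a group. Of 40 genes, 29 reached the minimum, 20 were called higher and 1 lower, against 4.43% and 13.8% of all genes tested. The median log2 ratio was 0.93, and the summed list was 1.71 times the level of the other cells, with 1.67 (U2) to 1.99 (U3) over the 6 tags. Vegfa, the vascular growth factor, was 527.2, 821.2, 608.1, 870.1, 483.1 and 496.2 CPM in members of U2, U3, U4, D0, D1 and D4 and 268, 184.2, 160.8, 257.5, 239 and 248.2 in the other cells. Its groups did not overlap, and the ratio was 2.16 (2.10 to 2.21). Hilpda, a lipid droplet protein that blocks fat breakdown, was 143.9 against 43.2 CPM (3.33-fold). Mxi1, an antagonist of MYC, was 3.25-fold higher and Higd1a, a mitochondrial inner membrane protein, 2.47-fold. The mitophagy receptor gene Bnip3l was 2.19-fold higher, the histone demethylase gene Kdm3a 2-fold and Pdk1, which keeps pyruvate out of the mitochondria, 1.91-fold. Fam162a and Mif, the members with most UMIs, were 1.86-fold and 1.45-fold, the latter short of a call. Nrn1, Stc2, Ak4 and Insig2 were called at 2.55-fold, 2.66-fold, 1.95-fold and 1.71-fold. Genes for collagen hydroxylation and crosslinking were in the same list: P4ha2 was 2.64-fold higher, Plod2 1.75-fold, Lox 1.69-fold and P4ha1 1.56-fold.

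The list holds genes of glycogen synthesis. Gbe1, the glycogen branching enzyme, was 60.2 against 17.4 CPM (3.46-fold, 3.20 to 3.74), and Gys1, glycogen synthase, 36.1 against 12.3 (2.94-fold, 2.66 to 3.25). Both were higher in 6 of 6 tags. The exception of the hypoxia list was Angptl4, a secreted lipase inhibitor often induced by hypoxia, at 21.5 against 35.1 CPM (0.613-fold). It was higher in 3 tags and lower in 3, with 58.7 against 38.9 CPM in D0 and 15.6 against 36.6 in D1. Ddit4, an inhibitor of mTORC1 signalling, was 138.2 and 108.2 CPM and Bhlhe40, a transcriptional repressor, 351 and 270.4, both short of a call. Adm and Ppp1r3c, which respond to low oxygen in many cells, were under the minimum.

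The upstream sequence of several of these genes is shown because it holds the ACGTG form of the HIF core. The GCGTG form was not searched and is not marked. The letters ACGTG, read on either strand and counted on both where CACGTG joins them, were searched in the 250 bases before each RefSeq gene start (GRCm38.p6), for 8144 of the 10154 genes that matched a window. Of the windows of all genes tested, 22.2% held a match. The share was 26.7% for the genes called higher (127 of 476 windows), 21.4% for those called lower (289 of 1351) and 27.8% for the other hypoxia-induced genes (10 of 36). All 6 rule genes with a window had a match, and Ndrg1, Nos2 and Hmox1 are not in the table. Capitals mark the matches, each line runs 5′ to 3′ on the strand of the gene, and stretches that GENCODE M21 annotates as exon were left out. The lines are Bnip3 and Egln3 of the rule, Sap30 (3.23-fold higher), P4ha2, and the glycolytic genes Pgk1 and Ldha.
Bnip3 (chr7:138909520-138909756, minus strand): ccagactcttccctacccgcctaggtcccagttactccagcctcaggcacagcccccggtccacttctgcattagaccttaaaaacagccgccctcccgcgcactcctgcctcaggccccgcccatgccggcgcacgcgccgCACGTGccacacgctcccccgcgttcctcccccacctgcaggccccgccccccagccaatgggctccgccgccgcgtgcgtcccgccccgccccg
Egln3 (chr12:54203875-54204124, minus strand): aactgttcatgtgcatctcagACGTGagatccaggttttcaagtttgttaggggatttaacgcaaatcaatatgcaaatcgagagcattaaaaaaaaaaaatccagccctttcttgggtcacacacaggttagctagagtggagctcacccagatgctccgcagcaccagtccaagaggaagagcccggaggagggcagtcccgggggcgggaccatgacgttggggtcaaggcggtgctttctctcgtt
Sap30 (chr8:57487861-57488053, minus strand): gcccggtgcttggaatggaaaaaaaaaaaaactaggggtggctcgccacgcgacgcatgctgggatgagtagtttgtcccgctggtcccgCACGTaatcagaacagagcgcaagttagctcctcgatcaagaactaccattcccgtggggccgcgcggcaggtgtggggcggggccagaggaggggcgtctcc
P4ha2 (chr11:54100674-54100923, plus strand): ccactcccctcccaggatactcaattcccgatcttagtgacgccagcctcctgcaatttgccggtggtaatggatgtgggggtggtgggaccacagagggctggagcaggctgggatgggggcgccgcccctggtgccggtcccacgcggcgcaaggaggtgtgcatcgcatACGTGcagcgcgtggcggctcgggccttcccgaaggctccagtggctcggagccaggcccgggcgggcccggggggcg
Pgk1 (chrX:106186850-106187099, plus strand): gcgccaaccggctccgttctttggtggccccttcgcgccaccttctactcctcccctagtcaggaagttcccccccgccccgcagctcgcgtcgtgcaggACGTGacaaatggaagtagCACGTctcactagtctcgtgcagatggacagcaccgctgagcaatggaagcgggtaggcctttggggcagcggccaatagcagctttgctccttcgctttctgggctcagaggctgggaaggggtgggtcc
Ldha (chr7:46845554-46845803, plus strand): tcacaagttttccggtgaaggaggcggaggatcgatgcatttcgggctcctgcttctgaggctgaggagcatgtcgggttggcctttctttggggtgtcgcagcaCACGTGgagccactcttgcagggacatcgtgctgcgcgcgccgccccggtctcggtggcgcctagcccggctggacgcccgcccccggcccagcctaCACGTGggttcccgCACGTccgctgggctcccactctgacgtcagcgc

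Bnip3 held CACGTG, which counts as 2 matches because it reads the same on both strands. Pgk1 held 1 match on each strand, and Ldha held 5 matches, 4 of them from 2 copies of CACGTG. Hilpda, Mxi1, Vegfa and Ldha each had a further start whose window held no match. The windows of Gbe1, Gys1, Apln and Cdkn1a held none, which says only that these letters are not in these 250 bases.

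Glycolysis followed the same direction. Of 17 genes, 15 reached the minimum, 10 were called higher (66.7%, against 4.43% of all genes) and none lower (13.8% of all genes), with a median log2 ratio of 0.68 and a summed list 1.61 times the level of the other cells (1.58 in D0 to 1.85 in U3). Gapdh was 2453, 3300, 3145, 3046, 2965 and 2723 CPM in members of U2, U3, U4, D0, D1 and D4 and 1276, 1286, 1326, 1447, 1489 and 1362 in the other cells, with no overlap and a ratio of 1.99 (1.97 to 2.01). Gpi1, which converts glucose 6-phosphate to fructose 6-phosphate, was 888.2 against 361.7 CPM (2.46-fold), and Pfkp, the platelet form of phosphofructokinase, 175.9 against 81.6 (2.16-fold). Pgk1 was 1.70-fold higher, the hexokinase genes Hk2 and Hk1 1.65-fold and 1.61-fold, and Pgam1 1.51-fold (1.49-fold without the barcodes of U2). Aldoc and Eno2 were called at 1.98-fold and 1.89-fold, each lower in at least 1 tag. Below the fold lay Ldha (1703 against 1153 CPM, 1.48-fold), Tpi1 (1.39-fold) and Pkm (1.26-fold). Pfkl stood at 1.5-fold, on the limit, and lost its call without any 1 of U2, U3, D0 or D1. Aldoa was not analysed here.

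Of the 7 genes of lactate and bicarbonate transport, 5 reached the minimum and 1 was called, in the higher direction (20%, against 4.43% of all genes). That gene was Bsg (basigin, the chaperone of the lactate transporters), at 2302 against 1082 CPM, a ratio of 2.13 (2.10 to 2.15). In U2, U3, U4, D0, D1 and D4 it was 2166, 2314, 2325, 2210, 2302 and 2662 CPM in members and 1050, 1113, 1086, 1124, 1056 and 1109 in the rest, without overlap. Of the transporter genes that basigin serves, Slc16a1 (MCT1) was not called, at 33.1 and 36.2 CPM. Slc16a3 (MCT4), a common HIF target, was under the minimum for a call, at 0.288 and 0.445 CPM. The bicarbonate transporter gene Slc4a4 was 63.5 and 47.3 CPM, a ratio of 1.34.

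Among genes outside the rule, with a name of their own and higher in each of U2, D0 and D1, Nos2 had the highest ratio. It encodes the inducible nitric oxide synthase, an oxygen-using enzyme best known from activated macrophages. In members of U2, U3, U4, D0, D1 and D4 it was 109, 63.4, 198.1, 119.3, 79.6 and 38.2 CPM, and in the other cells 24.4, 11.3, 10.9, 12.1, 15.6 and 12.3. The lowest members (D4) lay above the highest other cells (U2), and the ratio over all cells was 5.21 (4.87 to 5.56). It had a UMI in 56.3% of members and 18% of the other cells, and the top 10 cells held 14.8% of its UMIs in members. After thinning each cell to 2000 UMIs, 16.6% (13.6 to 19.8) of members and 3.34% (2.87 to 3.87) of the other cells had a Nos2 UMI. Leukocyte barcodes, at a median of 2209 UMIs before thinning, had 1.71% (0.915 to 2.91), with macrophages not taken apart from other leukocytes. Thinning left out 1 member, 50 other tumour cells and 610 of 1369 leukocyte barcodes with fewer UMIs, and without it the leukocyte share was 1.24%. The summed macrophage markers were 0.713-fold in members over all cells and 3.76-fold in D0, and their part in the Nos2 value of D0 was not tested.

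Hmox1 (haem oxygenase 1, which breaks down haem) was the strongest gene of iron and oxidant handling. It was 422.8, 798.4, 750.6, 522.1, 596.4 and 508.9 CPM in members of U2, U3, U4, D0, D1 and D4 against 127.8, 110.6, 117.2, 148.8, 133.8 and 106.9, with no overlap and a ratio of 3.69 (3.59 to 3.79). Of 18 genes of the NRF2 and iron list, 17 reached the minimum, 4 were called higher (23.5%, against 4.43% of all genes) and none lower. The others called were the metallothionein genes Mt1 (6371 against 2355 CPM, 2.71-fold) and Mt2 (2.32-fold), which bind zinc, and the ferritin light chain gene Ftl1 (1.69-fold). Classic NRF2 targets were level: Nqo1 was 11.2 and 11 CPM, Gclm 84.9 and 81.5, and Srxn1 31.4 and 32.5. The median log2 ratio of the list was 0.03.

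Other genes among the 20 with the highest ratios came from several functions. A place among the 20 required a higher level in each of U2, D0 and D1. Prdm1, a transcriptional repressor, was 14.4 against 3.38 CPM (4.26-fold, 3.60 to 5.03). Itpk1, an inositol phosphate kinase, was 4.18-fold higher and Bend5 3.88-fold, where Itpk1 was higher in 5 of 6 tags. Sap30, a subunit of a histone deacetylase complex, was 130.8 against 40.4 CPM (3.23-fold). Nadk2, the mitochondrial NAD kinase, was 2.91-fold higher, Zfp395 2.84-fold, the arrestin gene Arrb1 3.15-fold, Abhd18 3.15-fold and the orphan receptor gene Gpr35 2.96-fold. The vessel ligand genes Apln (apelin) and Pgf (placental growth factor) were 3.08-fold and 2.75-fold higher. Each of these 20 genes except Itpk1 was higher in 6 of 6 tags, of which U2, D0 and D1 were fixed by the choice of genes.

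**Figure D2:**
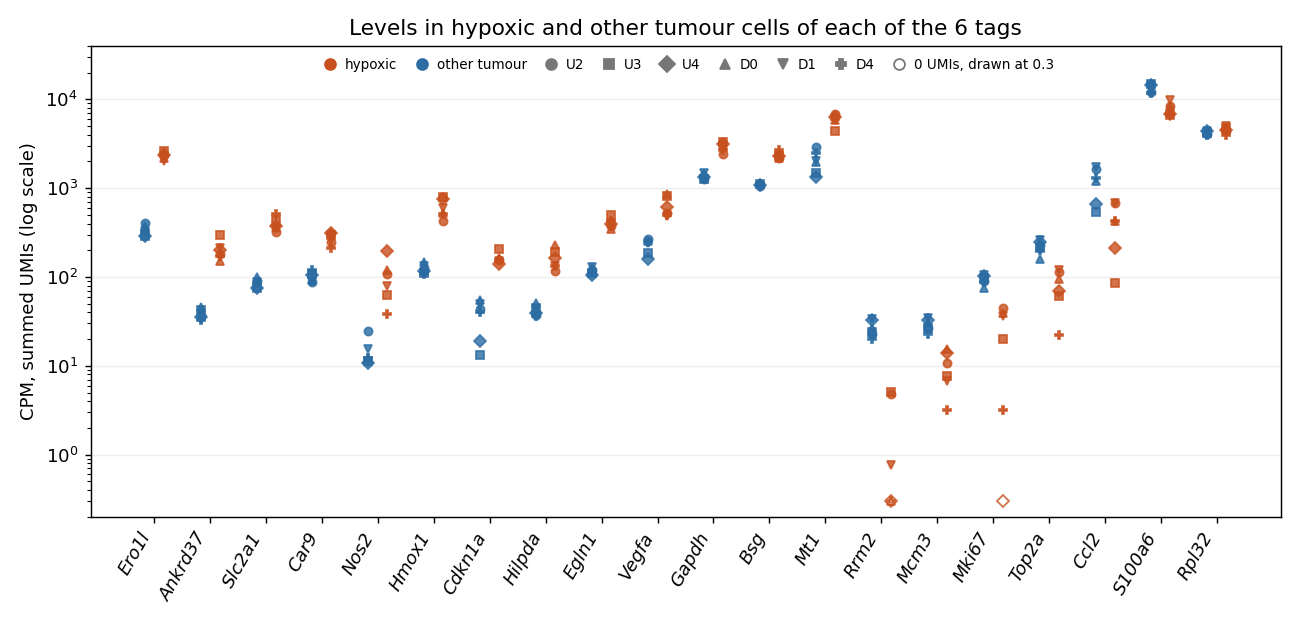
Level of 20 genes in CPM of summed UMIs (log scale) in hypoxic cells (orange) and other tumour cells (blue) of each of the 6 tags, marked by shape, with open symbols for 0 UMIs. The 4 rule genes at the left are shown as a description. Egln1, Gapdh and Bsg separate the groups in all tags, Rrm2 and Mki67 lie lower in members of every tag, and the ribosomal gene Rpl32 overlaps.

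DNA replication was the list with the lowest summed ratio over all cells, while mitosis was lower than replication in 4 of 6 tags (U3, U4, D0 and D4). Of 30 genes, all reached the minimum, 26 were called lower and none higher, against 13.8% and 4.43% of all genes tested, with a median log2 ratio of -1.23. The summed list was 0.498 times that of the other cells, from 0.443 (U4) to 0.538 (D0) over the tags. Rrm2, the subunit of ribonucleotide reductase made in S phase, was 4.88, 5.07, 0, 0, 0.758 and 0 CPM in members of U2, U3, U4, D0, D1 and D4 against 22.6, 23.8, 33.0, 26.5, 33.6 and 19.8 in the rest. Members lay lower in every tag, and the ratio was 0.101 (0.0704 to 0.140, 36 UMIs in members). Ccne1 (cyclin E1) was 0.173-fold, Cdc6 0.214-fold, Tyms (thymidylate synthase) 0.282-fold and the helicase gene Mcm3 0.309-fold. Pcna was 0.619-fold (0.674-fold without the barcodes of U2). The exceptions were E2f1 (23.7 against 20.7 CPM), Cdc45, Cdt1 and Slbp, which stayed short of a call. Outside the list, Pclaf, a PCNA-binding protein gene, was 24.2 against 110.6 CPM and the replication-dependent histone gene Hist1h1b 13.3 against 62.9. Adamts8, a secreted protease gene outside the cell cycle, was 0.131-fold on 11 UMIs in members.

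Genes of mitosis went the same way. Of 32 genes, 30 were called lower (93.75%, against 13.8% of all genes) and none higher, with a median log2 ratio of -1.08. Mki67 was 44.7, 20.3, 0, 39.1, 36.4 and 3.18 CPM in members of U2, U3, U4, D0, D1 and D4 against 90.7, 97.2, 103.6, 74.4, 105.7 and 88.2. Members lay lower in every tag, and the ratio was 0.398 (0.362 to 0.435). Top2a was 0.481-fold, Cdk1 0.484-fold, Birc5 (survivin) 0.347-fold and Aurkb 0.365-fold. Smc4 and Anln, at 0.770-fold and 0.808-fold, were the genes not called. The summed list ran from 0.245 (D4) to 0.582 (U2) over the tags. U2 and D1, with the most members, had the ratios nearest to 1. In cells thinned to 2000 UMIs, Mki67 was seen in 3.79% (2.39 to 5.69) of members and 11% (10.2 to 11.9) of the other cells, and Top2a in 9.31% (7.07 to 12.0) and 17.9% (16.8 to 18.9). Without thinning the shares were 16.4% and 35.6% for Mki67 and 29.8% and 45.6% for Top2a.

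Inhibitors of the cell cycle were higher in part. Cdkn1a (p21) was 153.7, 207.8, 139, 164.3, 152 and 155.8 CPM in members of U2, U3, U4, D0, D1 and D4 against 43.3, 13.4, 18.8, 54.7, 49.4 and 40.5 in the rest. The groups did not overlap, and the ratio was 3.47 (3.30 to 3.64). Cdkn1b (p27) was 85.0 against 47.8 CPM (1.78-fold), Mdm2 96.8 against 53.1 (1.82-fold) and Trp53inp1 2.18-fold. These were the 4 genes called, all higher, of the 16 that reached the minimum among 17 p53 targets and inhibitors (25%, against 4.43% of all genes). Other p53 targets were level, as Ccng1 (18.2 and 18.9 CPM) and Phlda3 (102.1 and 99.7), and Cdkn2a, at 267.1 against 370.9 CPM, was 0.720-fold. The median log2 ratio of the list was 0.15.

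The nuclear genes of oxidative phosphorylation were slightly lower. Of 43 nuclear genes of oxidative phosphorylation, 4 were called lower and none higher, 9.30% against 13.8% of all genes, but the summed list was 0.838 times that of the other cells and below 1 in 6 of 6 tags (0.729 in U4 to 0.857 in D1). The median log2 ratio was -0.30, or -0.18 relative to the median gene. Uqcrc1, a core subunit of complex III, was 52.8, 50.7, 48.7, 46.9, 66 and 35 CPM in members of U2, U3, U4, D0, D1 and D4 against 83.2, 85.5, 95.3, 91.6, 92.8 and 87.1, without overlap (0.632-fold). Ndufa5 of complex I was 0.639-fold, Cyc1 0.657-fold and the ATP synthase gene Atp5g1 0.631-fold. Of 20 genes of the citric acid cycle and pyruvate entry, 19 reached the minimum, 4 were called lower (21.1%, against 13.8% of all genes) and none higher: Idh3a was 0.588-fold, Fh1 0.620-fold, Suclg1 0.646-fold and Sdhb 0.651-fold. None of the 13 mitochondrially encoded genes was called, and their sum was 36986.5 CPM in members and 38188.2 in the rest, with a ratio above 1 in 3 of 6 tags (0.736 to 1.12). None of 28 cytosolic ribosomal protein genes was called, with a median log2 ratio of 0.01. In the pentose phosphate pathway the entry enzyme gene G6pdx was called lower (0.614-fold), the only call among 7 genes (14.3%, against 13.8% of all genes).

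**Figure D3:**
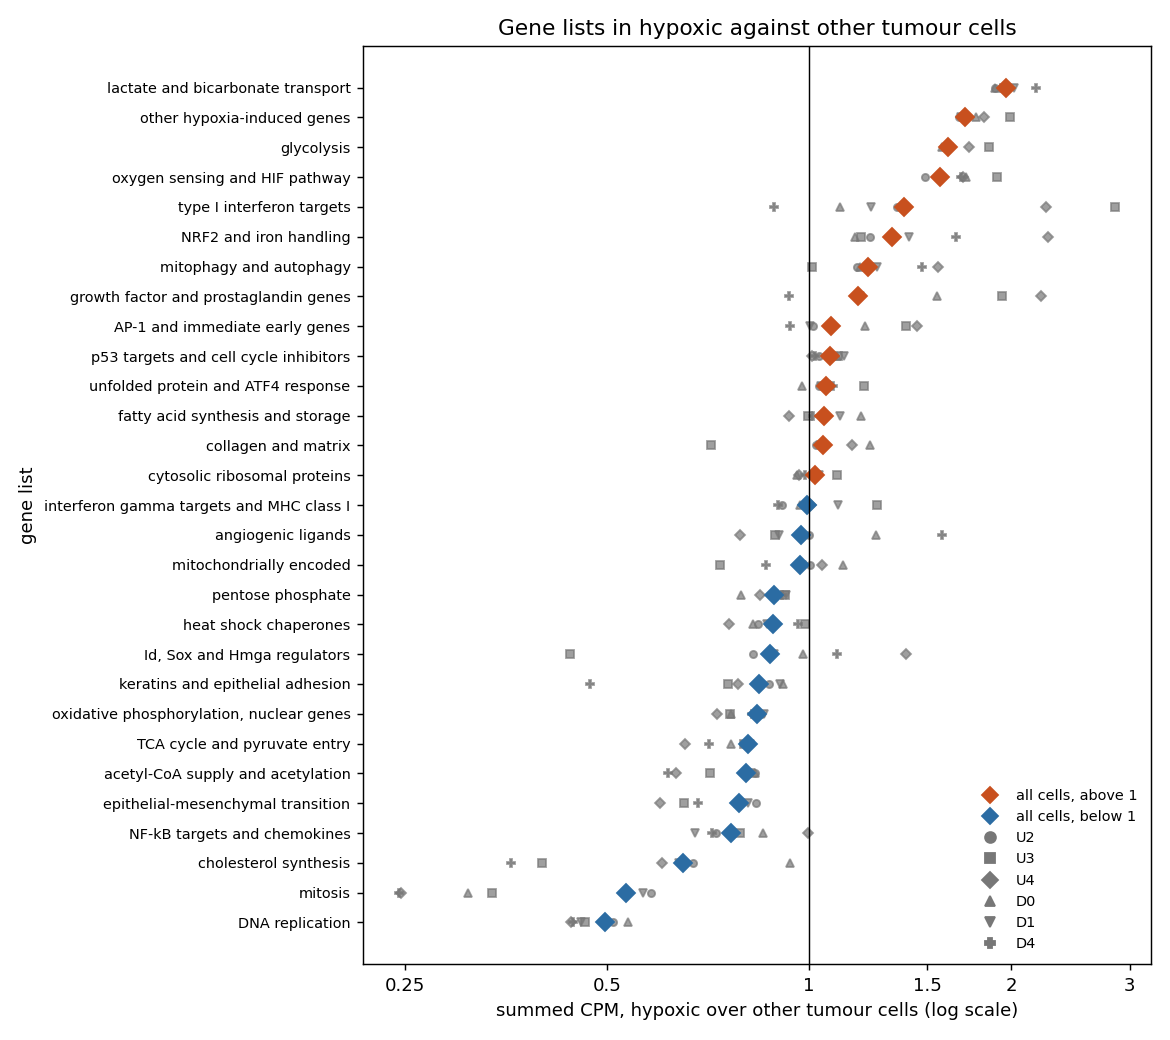
Summed CPM of each pathway list (rule genes and markers of other cell types not drawn) in hypoxic over other tumour cells on a log scale, with diamonds for all cells (orange above 1, blue below 1) and grey symbols for the 6 tags. DNA replication (0.498) and mitosis (0.533) stand lowest, lactate and bicarbonate transport (1.97, of which Bsg is most) and the other hypoxia-induced genes (1.71) highest. The type I interferon targets run from 0.886 (D4) to 2.85 (U3) over the tags.

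Sterol synthesis was lower. Of 20 cholesterol synthesis genes, all above the minimum, 12 were called lower (60%, against 13.8% of all genes) and none higher. The median log2 ratio was -0.64. Hmgcs1, which makes HMG-CoA, was 138, 96.3, 139, 254.2, 113 and 31.8 CPM in members of U2, U3, U4, D0, D1 and D4 against 298.1, 280.8, 253.5, 254.7, 246.3 and 159.4 in the rest. The ratio was 0.477 (0.454 to 0.501), but the 2 groups were alike in D0. The summed list ran from 0.359 (D4) to 0.936 (D0). Idi1 was 0.490-fold and Fdps 0.534-fold, while Sqle, an oxygen-using step, was 0.946-fold and Srebf2, the regulator of the pathway, 0.941-fold.

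Several enzymes that make or use acetyl-CoA were lower, and the target of the inhibitor had few UMIs. Acly, which makes acetyl-CoA from citrate, was 26.9 against 45.5 CPM (0.591-fold, 0.531 to 0.656) and lower in 6 of 6 tags. Fasn (fatty acid synthase) was 0.444-fold, Elovl6 0.359-fold and Elovl1 0.623-fold. With Acly they were the 4 genes called lower of 16 above the minimum in the fatty acid list (25%, against 13.8% of all genes). The summed list was 1.05 times that of the other cells and above 1 in 4 of 6 tags. Its median log2 ratio was -0.14, against -0.12 for all genes. Lpin1, a phosphatidate phosphatase, was 1.96-fold higher and the 1 gene of that list called higher (6.25%, against 4.43% of all genes). Acaca was 0.686-fold and the desaturase genes Scd1 and Scd2 1.09-fold and 1.21-fold. Of 16 genes of acetyl-CoA supply and acetylation, 12 reached the minimum, 4 were called lower (33.3%, against 13.8% of all genes) and none higher. The 4 were Acat2 (0.442-fold), the acetyltransferase gene Kat2a (0.561-fold), Acat1 (0.616-fold) and Hdac1 (0.623-fold). Acss2, which turns acetate into acetyl-CoA, was 3.17 against 1.80 CPM, under the minimum over all tumour cells, with a ratio of 1.76 (1.25 to 2.43). It was higher in 4 tags and lower in 2, on 44 UMIs in members, and taking the top 5% instead gave 1.48. Acss1, the mitochondrial form, had no UMI in either group.

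Unfolded protein and amino acid stress genes were called in both directions. Of 28 genes, 5 were called higher and 5 lower, 17.9% each, against 4.43% and 13.8% of all genes. Higher were Ddit3 (CHOP), at 261.6 against 110.1 CPM (2.38-fold, 6 of 6 tags), its partner Trib3 (2.19-fold), the cystine transporter genes Slc7a11 (2.26-fold) and Slc3a2 (1.56-fold), and Dnajb9 (1.53-fold). Dnajb9 was at 1.49-fold, under the limit, without the barcodes of U2. Lower were the serine synthesis genes Phgdh (0.540-fold), Psat1 (0.624-fold) and Shmt2 (0.536-fold), and the folding enzymes Pdia6 (0.645-fold) and Sdf2l1 (0.587-fold). Hspa5, the main chaperone of the endoplasmic reticulum, was 0.845-fold and Atf4 1.20-fold. In the autophagy list, Ulk1 (1.92-fold) was the only gene called of 17 (5.88%, against 4.43% of all genes).

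Of 14 angiogenic ligand genes beside Vegfa, Apln and Pgf were called higher and Cyr61 (0.522-fold), Pdgfb (0.448-fold) and Angpt2 (0.659-fold) lower. The shares called were 14.3% higher and 21.4% lower, against 4.43% and 13.8% of all genes. The call of Angpt2 ended without U2 (0.710-fold) or D4 (0.679-fold). In the matrix list the shares called, 7.41% higher and 14.8% lower, were close to the 4.43% and 13.8% of all genes. Of 27 genes, 2 were called higher, the collagenase gene Mmp13 (105.8 against 44.2 CPM, 2.39-fold) and Mmp10 (2.67-fold), and 4 lower, Col1a1 (0.598-fold), Loxl1 (0.594-fold), Loxl3 (0.602-fold) and Mmp9 (0.382-fold). Col1a1 was 0.683-fold, not called, without the barcodes of U2. Fn1, the most abundant of them, was 4261 and 3355 CPM. In the list of 21 mesenchymal genes, 4.76% were called higher and 19.05% lower, against 4.43% and 13.8% of all genes. Inhba, the activin subunit, was 2.08-fold higher, and 4 genes were called lower, S100a6 (8520 against 13304 CPM, 0.640-fold), Lgals1 (0.660-fold, and 0.670-fold without U4), Acta2 (0.365-fold) and Tagln (0.569-fold, and 0.839-fold without the barcodes of U2). Snai1, Zeb1 and Twist1, which drive the mesenchymal state, were not called.

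Immune signalling genes moved in different directions. Of 14 type I interferon targets, 13 reached the minimum, 7 were called higher (53.85%, against 4.43% of all genes) and none lower. The median log2 ratio was 0.70. Ifit1 was 217.1, 225.6, 163.3, 326.5, 213.5 and 76.3 CPM in members of U2, U3, U4, D0, D1 and D4 against 89.2, 73.0, 55.0, 231.9, 145 and 155.8, higher in 5 tags and lower in D4. Ifit3 and Rsad2 were 1.98-fold and 1.96-fold higher over all cells. The summed list ran from 0.886 (D4) to 2.85 (U3). Of 21 interferon gamma and MHC class I genes, 5 were called lower (23.8%, against 13.8% of all genes) and none higher. They were led by the chemokine genes Cxcl9 (0.228-fold) and Cxcl10 (81.6 against 213.8 CPM, 0.382-fold) and the GTPase gene Iigp1 (0.473-fold). The class I genes H2-K1, H2-D1 and B2m were 0.919-fold, 0.956-fold and 1.21-fold.

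Several NF-kB targets and chemokine genes were lower. Ccl2 was 679.5, 86.2, 212, 422.4, 689.7 and 432.6 CPM in members of U2, U3, U4, D0, D1 and D4 against 1635, 545.7, 672.2, 1197, 1713 and 1306, lower within each tag though the tags overlap, and the ratio was 0.434 (0.425 to 0.444). Ccl7 was 0.457-fold, Csf1 0.519-fold, Csf2 0.340-fold, Cxcl2 0.376-fold and the acute phase gene Saa3 0.546-fold, and these were the 6 genes called, all lower, of 19 NF-kB targets and chemokines above the minimum (31.6%, against 13.8% of all genes). The median log2 ratio of the list was -0.03, and Cxcl2 was 4.65-fold in U4 and below 1 in the other 5 tags. The feedback inhibitor genes Nfkbia and Tnfaip3 were 0.940-fold and 0.977-fold. None of 16 AP-1 and immediate early genes was called, with Fos at 2348 and 2222 CPM and Jun at 1314 and 1311. Of 13 heat shock chaperone genes, Hspa1a (0.232-fold, 12 UMIs in members) and Hspd1 (0.653-fold) were called lower, 15.4% against 13.8% of all genes.

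Of 10 growth factor and prostaglandin genes, 9 reached the minimum, 2 were called higher (22.2%, against 4.43% of all genes) and none lower (13.8% of all genes). Of 10 Id, Sox and Hmga regulators, all above the minimum, 2 were called higher (20%, against 4.43%) and none lower. The median log2 ratio was -0.20 in each list. The prostaglandin genes Ptgs2 (796.5 against 491.7 CPM, 1.62-fold) and Ptges (2-fold) were called higher, and the growth factor genes Areg and Ereg were not, at 1.23-fold and 0.871-fold. Sox9, a transcription factor of progenitor cells, was 1154 against 715 CPM (1.61-fold) and Id2 60.2 against 24.8 (2.43-fold), while Hmga2 was 0.731-fold and Spp1 (osteopontin), at 27521 and 32201 CPM, 0.855-fold.

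The differences were graded along the range of the rule genes. For this the UMIs of each cell were split at random in 2 equal parts, all tumour cells were ranked in 10 equal groups by the 7 genes in 1 part, and levels were read from the other part relative to all tumour cells. From the lowest to the highest group the rule genes went from 0.196 to 3.40, Nos2 from 0.121 to 3.93, the other hypoxia-induced genes from 0.610 to 1.60 and glycolysis from 0.664 to 1.51. DNA replication went from 1.40 to 0.531, mitosis from 1.13 to 0.575 with its highest value, 1.34, in the third group, and oxidative phosphorylation from 1.11 to 0.842. Cholesterol synthesis was level, between 0.999 and 1.11, over the lowest 8 groups and was 0.856 and 0.686 in the top 2. Cytosolic ribosomal genes lay between 0.983 and 1.04 in every group. Cdkn1a went from 0.273 to 2.88 and Hmox1 from 0.352 to 2.92, each with its steepest step into the top group.

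**Figure D4:**
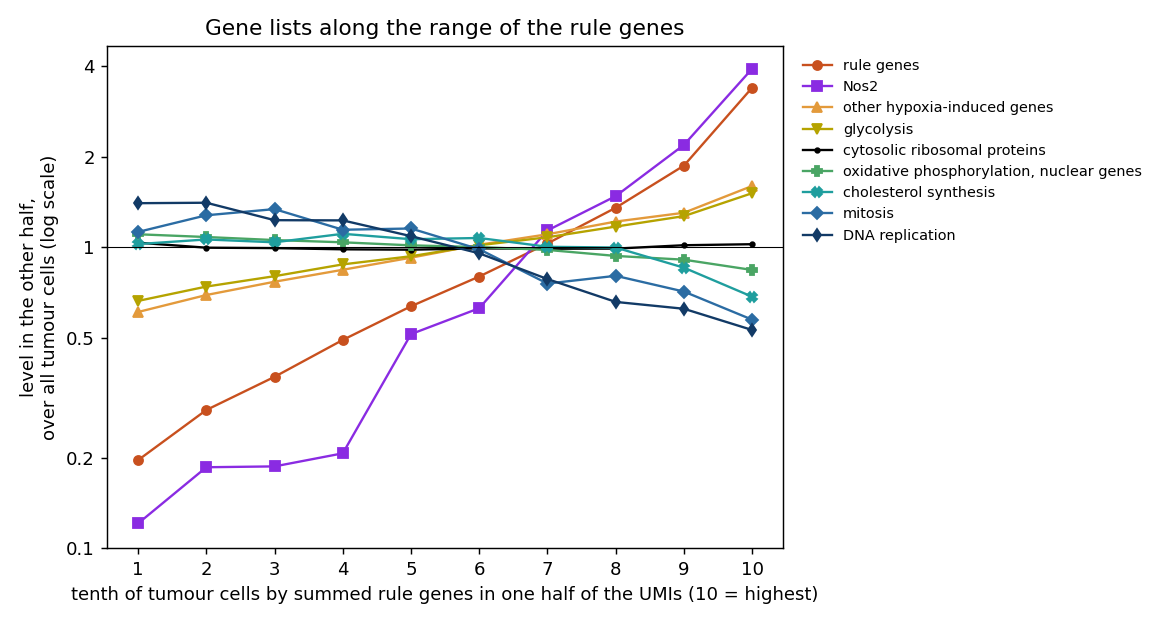
Level of gene lists and Nos2, read from 1 part of the UMIs relative to all tumour cells (log scale), in 10 groups of tumour cells ranked by the 7 rule genes in the other part, with 581 cells in each group. Hypoxia-induced genes and glycolysis are higher in each group than in the one before, replication and mitosis are lowest in the top group, and ribosomal genes stay between 0.983 and 1.04.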

How the data were processed

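The matrix deposited by the authors holds raw UMI counts for 31053 genes and 6 antibody tags in 9747 barcodes, and the counts were used as deposited. The submitters' processing notes name Cell Ranger and mm10. Per the file headers, software 3.1.0 produced the matrix. The annotation and cell calling are not given in the sources used here.

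Barcodes under 500 genes (696) or at or over 15% mitochondrial UMIs (267) were left out. Tags were assigned with HTODemux (Seurat 5.3.0, R 4.3.3, quantile 0.99, seed 42), which gave 5590 barcodes with 1 tag, 2329 with none and 865 with several. Barcodes with several tags were kept, as the rule for members does not remove them, and removed in an alternative. UMIs were summed over 581 members (13881230 UMIs) and 5229 other tumour cells (148431679 UMIs) and given as CPM, so a ratio depends on all genes of the sum. Leukocyte barcodes held a Ptprc UMI and no Krt8 or Krt18 UMI. Thinning drew 2000 UMIs per cell. Per-tag values come from 15 to 152 members, so a level of 0 there allows 3 UMIs.

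The rule for genes to name takes the 7 rule genes, the 20 highest and 15 lowest ratios among named genes on the same side in every tag with at least 20 members, the 4 members with most UMIs and every called member of 36 lists, and Acss2, Acss1 and Acly. The text prints part of these, some are not reported here, and counts cover whole lists. Genes beyond this rule were chosen after their values were seen. Members and lists were chosen with earlier results of these data known. Summing and calling were tested on simulated data. Promoter windows come from RefSeq (GRCm38.p6) and exons from GENCODE M21. Computations used Python 3.11.15, numpy 2.4.6, scipy 1.17.1 and pandas 2.3.3.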

Additional observations from a re-analysis of the deposited data

Results flagged for a closer look

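Values over the 6 tags were searched for a tag that stood far from the other 5, and chance marks about 1 in 20 such sets of 6. Of 151 values searched, 11 (7.3%) were marked. U3, U4, D0 and D4, which give these values, hold 15 to 25 members each.

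The ratio of Cdkn1a was 15.5 in U3 against 3.00 to 7.38 in the other tags, where U3 also had the lowest level in its other tumour cells. The ratio of the rule gene Ndrg1 was 8.56 in U3 (3.18 to 4.95 elsewhere), that of Hmga2 1.51 in U3 (0.465 to 0.809) and that of Ugp2 2.83 in U3 (1.93 to 2.20). In U4 the ratio was 4.76 for Mt1 (2.38 to 3.01 elsewhere), 4.65 for Cxcl2 (0 to 0.341) and 1.56 for Twist1 (0.989 to 1.20). In D0 it was 1.75 for Hif1a (1.18 to 1.38) and 3.76 for the summed macrophage markers (0.277 to 1.33). In D4 it was 1.03 for Vim (1.15 to 1.19) and 0.473 for the summed keratin and epithelial adhesion genes (0.756 to 0.914).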

How the results depend on the processing

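Under 30 alternatives, the medians of the hypoxia, glycolysis, replication, mitosis and oxidative phosphorylation lists kept their sign. The genes called higher and lower numbered 718 and 935 relative to the median ratio, 276 and 839 with at least 10 CPM, and 2145 and 2481 with no minimum other than 1 UMI in each group. The oxidative phosphorylation median was -0.18 (log2) relative to the median ratio. With Ero1l left out of the score, 463 genes were called higher and 1108 lower. The replication and mitosis medians were then -1.0 and -0.695, against -1.23 and -1.08 in the main setting. With the score as mean z, 390 genes were called higher and 1097 lower, and these medians were -1.13 and -0.724. With the top 5% or 20% of cells, the hypoxic share ran from 3.62% to 7.95% or from 17.4% to 25.8% over the tags. The ratio of median UMIs was 0.806 with the top 5%, 0.890 with the score as mean z and 1 with members chosen within 10 classes of total UMIs, where 371 genes were called higher and 1109 lower and the replication and mitosis medians were -1.04 and -0.62. Without the barcodes of any 1 tag, 442 to 475 genes were higher and 1368 to 1563 lower. The hypoxia median ran from 0.905 to 0.934 there, glycolysis from 0.673 to 0.730, replication from -1.30 to -1.21, mitosis from -1.13 to -1.06 and oxidative phosphorylation from -0.31 to -0.28. The ratio of Hbb-bs was 0.115 with the top 5%, 0.0975 without barcodes of several tags and 0.486 as the median within tags, and 1.33 without barcodes over 2 haemoglobin UMIs, a setting chosen after seeing the data. Of 156 named genes past the fold, 40 did not keep it in the same direction under at least 1 alternative, and Hbb-bs alone reversed. This count looks at the fold only. A gene that drops under the minimum of 10 CPM is not counted as lost for that reason. Hypoxic and other cells are paired within each tag, but no paired test was run, because members were chosen by counts of the same cells. No result comes from a test, and ratios within each tag are given instead. Rare genes are limited by depth: 11 UMIs of Adamts8 and 36 of Rrm2 were counted in members.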

Other observations

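Genes outside the lists, chosen after their values were seen, are given as single genes and stand for no group. Among those higher in hypoxic cells, Ugp2, which makes UDP-glucose, was 141.6 against 67.9 CPM (2.09-fold, 1.99 to 2.19), and Stbd1, a glycogen-binding protein gene, 11 against 4.53 (2.43-fold, 2.03 to 2.90). The dioxygenase genes Kdm4b, Jmjd6, Tet2 and Kdm7a were 2.58-fold, 2.13-fold, 2.09-fold and 2.05-fold higher, each in 6 of 6 tags. Tnfrsf9, the receptor 4-1BB, was 356.8, 425.8, 469.1, 346.1, 266.9 and 493 CPM in members of U2, U3, U4, D0, D1 and D4 and 143, 142.8, 118.3, 128.5, 118.3 and 138.8 in the other cells. Its groups did not overlap, and the ratio was 2.49 (2.41 to 2.57).

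Cyclin D1, which starts the cell cycle, was lower beside the replication genes. Ccnd1 was 198.8, 162.2, 159.9, 191.6, 266.9 and 92.2 CPM in members of U2, U3, U4, D0, D1 and D4 against 521.6, 545.2, 617.7, 575, 633.5 and 575.5 in the rest, without overlap and with a ratio of 0.363 (0.350 to 0.377). Ccng2 and Rb1, which restrain the cycle, were 2.56-fold and 2-fold higher. Srm (spermidine synthase) was 19.6 against 64.3 CPM (0.305-fold), Dkc1 (dyskerin) 0.354-fold, Gpatch4 0.399-fold and Nop16 0.443-fold, each in 6 of 6 tags. Eno3, another enolase gene, was 75.6 against 169.7 CPM (0.446-fold), opposite to the glycolysis genes above, and it is not in that list.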
